A study of Mus musculus with 2 samples.

Results

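The interferon regulatory factor (IRF) family was followed through the phagocytes and B cells found among cells sorted from the lung. The 8 family genes Irf1, Irf2, Irf3, Irf4, Irf5, Irf7, Irf8 and Irf9 were taken by symbol from the 31053 gene rows of each of 6 count matrices. Lung DCs and macrophages were sorted from female C57BL/6J mice of 3 treatments. B cells were not a target of this sort and were found among the sorted cells. The asthma group (labelled OVA) was sensitized to ovalbumin in Alum and challenged through the nose, the tolerance group (labelled Tolerization protocol) inhaled ovalbumin before the same protocol, and the control group (labelled Alum) received Alum and saline without ovalbumin. The animals of a treatment were pooled before sorting, each pool was tagged with its own hashtag, and the mixed cells were run on 2 technical lanes. Thus a treatment is 1 pool, no test between treatments is possible, and only differences between cell classes were tested, with the pool as the replicate (n = 3). The 3 pools differ in treatment, so a spread between them also holds differences between treatments.

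IRF proteins share a DNA-binding domain that reads GAAA repeats, the core of the interferon-stimulated response element (ISRE). IRF3 and IRF7 are switched on below nucleic acid sensors and drive transcription of type I interferon genes. IRF9 is the DNA-binding part of the complex that answers type I interferon. IRF1 is induced by interferon and IRF2 opposes it at shared sites. IRF5 acts below Toll-like receptors in macrophages. IRF4 and IRF8 are lineage factors that bind with partners such as PU.1 and BATF3, IRF8 in cDC1 and IRF4 in cDC2, B cells and alternatively activated macrophages.

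The 250 bases before the annotated start of 4 members are shown for the class pattern of Irf8, for the largest changes with the interferon state of the cell (Irf7 and Irf1), and for the 1 ISRE match among the members (Irf2). Irf9 and Irf4 also changed with interferon state, had no match in the windows searched and are not shown. The sequences are from RefSeq, GRCm38.p6, 5′ to 3′ on the strand of the gene. Capitals mark matches, on either strand, to the ISRE letters (GAAA, any 2 bases, GAAA), to a variant of it that begins with GGAA in place of the first GAAA, or to the STAT site (GAS) letters TTCNNNGAA. The regions are chr8:120736108-120736357 for Irf8 (plus strand), chr11:53769764-53770013 for Irf1 (plus strand), chr8:46739495-46739744 for Irf2 (plus strand) and chr7:141266425-141266674 for Irf7 (minus strand).
Irf8: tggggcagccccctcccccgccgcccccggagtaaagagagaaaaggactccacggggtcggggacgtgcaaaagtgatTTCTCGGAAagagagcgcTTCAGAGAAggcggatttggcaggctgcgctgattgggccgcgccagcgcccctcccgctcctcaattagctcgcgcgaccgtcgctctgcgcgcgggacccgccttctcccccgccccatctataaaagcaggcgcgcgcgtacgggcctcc
Irf1: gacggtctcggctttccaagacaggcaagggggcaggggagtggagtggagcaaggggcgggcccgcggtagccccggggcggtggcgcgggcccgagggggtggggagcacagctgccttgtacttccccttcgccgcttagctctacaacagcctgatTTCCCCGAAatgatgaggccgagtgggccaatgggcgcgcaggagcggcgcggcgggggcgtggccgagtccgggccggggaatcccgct
Irf2: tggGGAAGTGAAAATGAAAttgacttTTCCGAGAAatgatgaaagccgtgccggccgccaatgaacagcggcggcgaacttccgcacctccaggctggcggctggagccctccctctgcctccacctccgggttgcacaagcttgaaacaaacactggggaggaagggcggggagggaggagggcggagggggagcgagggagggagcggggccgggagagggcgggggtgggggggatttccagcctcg
Irf7: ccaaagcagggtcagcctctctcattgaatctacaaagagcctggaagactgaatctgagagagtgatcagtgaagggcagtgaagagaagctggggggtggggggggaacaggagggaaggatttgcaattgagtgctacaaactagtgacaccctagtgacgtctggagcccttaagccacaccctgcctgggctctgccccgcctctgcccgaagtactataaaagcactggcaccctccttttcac

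Irf8 held 2 GAS matches that began 171 and 153 bases before the start, and Irf1 held 1 that began 90 bases before it. Irf2 held a GAS match at 224 bases and, overlapping each other, an ISRE match at 241 and a match to the GGAA variant at 247 bases. In windows of 300 bases (250 before to 50 after the start), GAS letters were found in 8.3% of 32851 mouse promoters, ISRE letters in 3.44% and the GGAA variant in 2.72%. Of the 8 members, 3 had a GAS match and 1 an ISRE match, and Irf7, Irf9, Irf4, Irf5 and Irf3 had none of these letters in the windows searched. Members were counted per gene, some with more than 1 window, while the shares above are per promoter. The Irf9 windows (55603735 to 55604034 and 55604329 to 55604628) lie inside the gene, which starts at 55603571 in the positions below. The bases before that start were not searched. Among 9 interferon-induced genes with a promoter in the table, 5 had an ISRE match.

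Irf8 lies on chromosome 8 (120736358 to 120756694, GRCm38), Irf2 on chromosome 8 (46739732 to 46847458), Irf4 on chromosome 13 (30749226 to 30766976) and Irf5 on chromosome 6 (29526625 to 29541871). Irf1 lies on chromosome 11 (53770014 to 53778374), Irf7 on chromosome 7 (141262706 to 141266481), Irf3 on chromosome 7 (44997648 to 45002848) and Irf9 on chromosome 14 (55603571 to 55610030). An exon of Irf9 overlaps an exon of Rnf31 on the same strand, so the split of reads between them is uncertain. Of the 2 genes, Rnf31 was counted with 928 UMIs (unique molecules) and Irf9 with 2789.

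Of 10901 barcodes, 9862 cells were used, and none of the 6 libraries shared a barcode with another. The libraries held 7897139 to 11459855 UMIs. A cell was assigned to a class only from 6 marker genes per class, none of them an IRF gene, and 7608 cells were assigned. In the asthma, tolerance and control pools there were 1236, 575 and 2264 alveolar macrophages (AM), 355, 510 and 47 interstitial macrophages (IM), 148, 104 and 72 nonclassical monocytes, 117, 75 and 67 Xcr1+ cDC1, 188, 64 and 28 Ccr7+ DC, 370, 210 and 132 cDC2, and 265, 148 and 124 B cells. Each class was highest in its own marker list, but IM also held the cDC2 list at 1068 CPM (counts per 1e6 UMIs of that class) beside 11070 CPM of their own, cDC2 the classical monocyte list at 865 CPM beside 4077, and Xcr1+ cDC1 the cDC2 list at 291 CPM beside 1318. The part of these markers in the results was not tested. All 8 members passed the filter on low counts, with 1669 (Irf3) to 11219 (Irf8) UMIs in all.

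**Figure D1:**
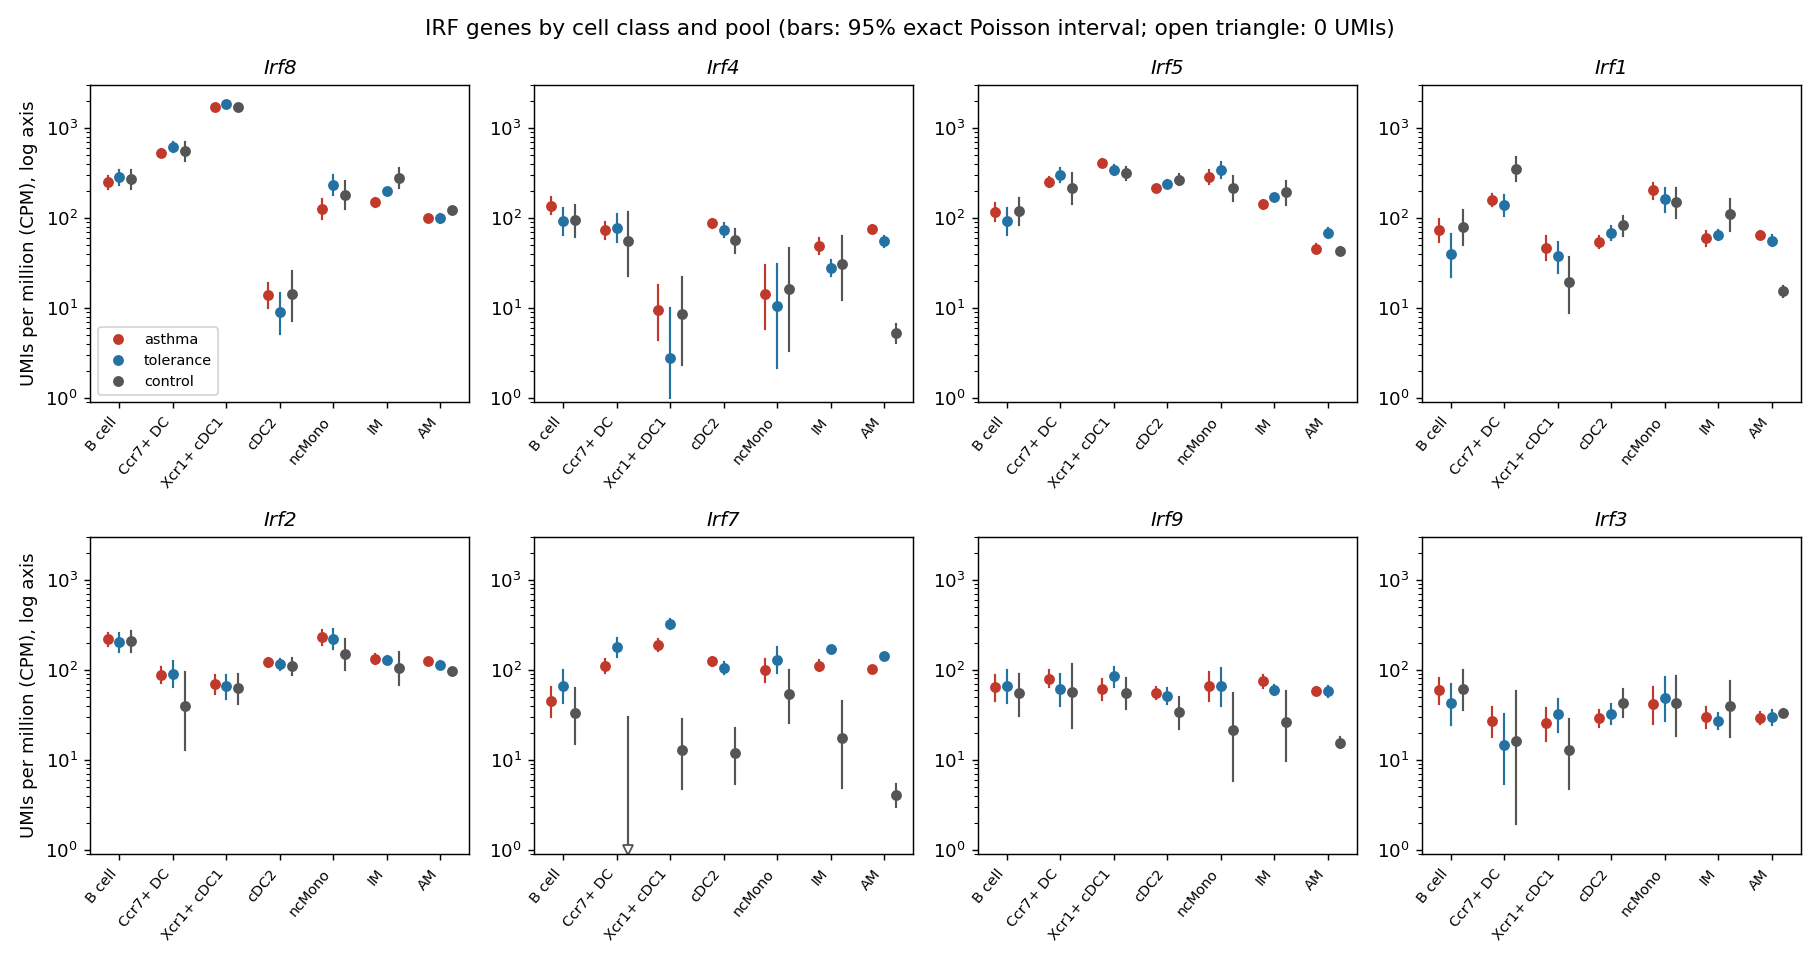
Level of each IRF gene (CPM, log axis) in 7 cell classes, 1 point per pool of mice (asthma, tolerance and control, left to right) with its 95% exact Poisson interval for counting error; ncMono stands for nonclassical monocyte, and an open triangle for 0 UMIs. Irf8 stands at 1689 to 1853 CPM in Xcr1+ cDC1 and at 8.99 to 14.4 CPM in cDC2, while the control pool lies below the asthma and tolerance pools for Irf7 in all 7 classes.

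Irf8, the factor that cDC1 need for their development, separated the DC classes most widely. Its level in Xcr1+ cDC1 was 1693 CPM in the asthma pool, 1853 in the tolerance pool and 1689 in the control pool. In Ccr7+ DC, the class with the maturation markers Ccr7 and Fscn1, it was 531, 608 and 552 CPM in the same order. In cDC2 it was 13.96, 8.99 and 14.4 CPM. The 3 ranges did not overlap, and the pools of each class lay close together. Irf8 was 7.18 ± 0.23 log2 units (SE) higher in Xcr1+ cDC1 than in cDC2 (edgeR adjusted p = 3.23e-19) and 5.72 ± 0.23 higher in Ccr7+ DC than in cDC2 (adjusted p = 1.9e-17). Against Xcr1+ cDC1, the level in Ccr7+ DC was lower, with a log2 fold change of -1.46 ± 0.17 (adjusted p = 5.81e-08).

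After thinning every cell to 1500 UMIs, 84.1% of 258 Xcr1+ cDC1 held an Irf8 UMI (95% exact interval 79.1 to 88.4%), 40.6% of 276 Ccr7+ DC (34.7 to 46.6%) and 1.56% of 707 cDC2 (0.779 to 2.77%). Unthinned, these shares were 98.1%, 59.6% and 6.74%, at median depths of 7454, 5517 and 7182 UMIs. Endothelial cells, assumed here not to express the gene, had 0.926% after thinning (0.0234 to 5.05%, 108 cells) and 1.01% before it, at a median depth of 1568 UMIs. The thinned share in cDC2 lay inside the wide interval of this background, which rests on 1 thinned cell with an Irf8 UMI. By level the cDC2 pools (8.99 to 14.4 CPM) lay above the endothelial pools (0 to 8.32 CPM), which rest on 2 UMIs. The level in Ccr7+ DC was thus the level of a class in which many cells gave no Irf8 UMI at this depth. Intervals of this kind cover counting error only.

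Outside the DCs, Irf8 formed a descending order of B cells, IM, nonclassical monocytes and AM, in which B cells overlapped IM and IM overlapped nonclassical monocytes. In B cells, where IRF8 acts in germinal centre and marginal zone programmes, Irf8 was at 268 ± 17.5 CPM (SD, n = 3 pools), 2.72 ± 0.18 log2 units below Xcr1+ cDC1 (log2 fold change -2.72, adjusted p = 9.39e-13). In IM it was at 150 CPM in the asthma pool, 200.4 in the tolerance pool and 277 in the control pool. In AM it was at 99.8, 99.1 and 122 CPM in the same order. All IM pools lay above all AM pools, and the difference was 0.93 ± 0.17 log2 units (adjusted p = 6.6e-05). Nonclassical monocytes (181 ± 54.0 CPM) overlapped IM (log2 fold change -0.18 ± 0.20, adjusted p = 0.531), and cDC2 were 3.93 log2 units below IM (log2 fold change -3.93 ± 0.23, adjusted p = 6.44e-14).

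Irf4, the lineage factor of cDC2 and of plasma cell differentiation, had the opposite order to Irf8 in Xcr1+ cDC1 and cDC2. It was at 9.53, 2.77 and 8.57 CPM in Xcr1+ cDC1 of the asthma, tolerance and control pools, against 86.9, 73.6 and 56.3 CPM in cDC2. The 2 classes did not overlap, and the Xcr1+ cDC1 values rest on 15 UMIs in all. The log2 fold change of Xcr1+ cDC1 against cDC2 was -3.43 ± 0.66 (adjusted p = 0.000308). Ccr7+ DC were not at the low level of Xcr1+ cDC1. They had 73.0, 78.2 and 56.0 CPM, 3.43 ± 0.73 log2 units above Xcr1+ cDC1 (adjusted p = 0.000379) and overlapping cDC2 (log2 fold change -0.002 ± 0.354, adjusted p = 1).

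Both lineage factors were thus measured in the Ccr7+ DC class. Of 276 thinned Ccr7+ DC, 15 cells held a UMI of both genes, 20 of Irf4 alone, 97 of Irf8 alone and 144 of neither. The share with both was 5.43%, and the product of the 2 single shares was 5.15%. Among 258 Xcr1+ cDC1, 5 cells held both and 0 held Irf4 alone, which allows up to 1.16% of cells with such a UMI at this depth and sets no limit on cells that express the gene. Among 707 cDC2, 1 cell held both and 78 held Irf4 alone. At 1500 UMIs per cell most cells that carry a transcript at this level give none.

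**Figure D2:**
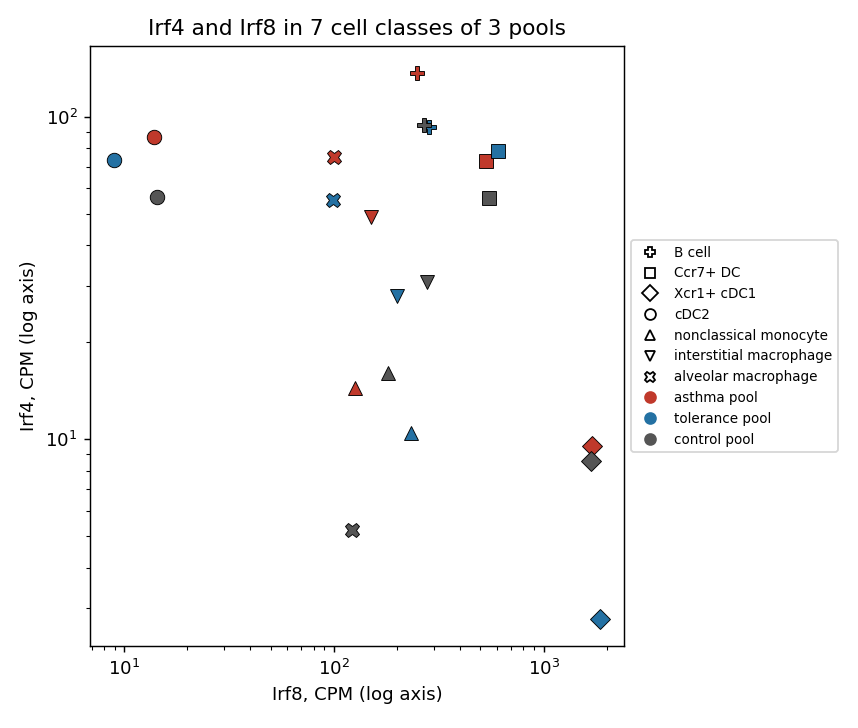
Irf4 against Irf8 level (CPM, both axes log), 1 point per pool in each of 7 cell classes; the symbol gives the class and the colour the pool. Xcr1+ cDC1 lie at the lower right (Irf4 at 2.77 to 9.53 CPM), cDC2 at the upper left, Ccr7+ DC and B cells at the upper right, and AM of the control pool (Irf4 at 5.25 CPM) far below AM of the asthma and tolerance pools.

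B cells had the highest Irf4 level, 108 ± 24.8 CPM, with 137, 93.0 and 94.5 CPM in the asthma, tolerance and control pools. This was 4.06 ± 0.68 log2 units above Xcr1+ cDC1 (adjusted p = 2.05e-05). Next came cDC2 (72.3 ± 15.3) and Ccr7+ DC (69.1 ± 11.6 CPM), whose pools overlapped. In IM it was at 49.0, 27.9 and 30.8 CPM, and cDC2 were 1.27 ± 0.42 log2 units above them (adjusted p = 0.0196). This call was lost in 4 of 14 alternative fits, among them those without the asthma pool (adjusted p = 0.127), without the tolerance pool (0.229) and without the pool term (0.188).

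In Xcr1+ cDC1 against cDC2, 4 of 8 members passed the test, where 15.5% of 8977 genes did. Irf5, which acts below Toll-like receptors, was higher in Xcr1+ cDC1 (353 ± 47.0 CPM) than in cDC2 (241 ± 24.2 CPM, log2 fold change 0.63 ± 0.17, adjusted p = 0.0104). Irf2 was lower in Xcr1+ cDC1 (65.4 ± 3.35 CPM) than in cDC2 (115 ± 6.06 CPM, log2 fold change -0.75 ± 0.16, adjusted p = 0.0014). Without the asthma pool the adjusted p was 0.464 for Irf5 and 0.0786 for Irf2, and without the tolerance pool 0.0861 for Irf5 and 0.0784 for Irf2.

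In Ccr7+ DC against Xcr1+ cDC1, 3 of 8 members passed, with a background of 39.8%, and against cDC2 3 of 8, with a background of 43.6%. The share of members called was not above that of all genes in either comparison. Irf1, which drives genes of antigen processing, was at 158 CPM in the asthma pool, 139 in the tolerance pool and 352 in the control pool of Ccr7+ DC, against 46.6, 37.4 and 19.3 CPM in Xcr1+ cDC1. The classes did not overlap, and Irf1 was 2.49 ± 0.47 log2 units higher in Ccr7+ DC (adjusted p = 8.84e-05). Against cDC2, where it was at 54.4, 68.0 and 82.5 CPM, it was 1.69 ± 0.40 higher (adjusted p = 0.00107). Irf9 was 0.69 ± 0.28 higher in Ccr7+ DC than in cDC2 (adjusted p = 0.0467), a call that 7 of 14 alternatives did not keep, with an adjusted p of 0.418 without the asthma pool and 0.142 without the tolerance pool.

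B cells differed from Xcr1+ cDC1 in 6 of 8 members, with a background of 40.5%. Irf2 was at 218, 202 and 207 CPM in B cells of the asthma, tolerance and control pools, against 68.8, 65.1 and 62.2 CPM in Xcr1+ cDC1. It was 1.66 ± 0.17 log2 units higher in B cells (adjusted p = 6.7e-09) with little spread between pools. Irf3, the constitutive factor below RIG-I and STING, was 1.13 ± 0.29 higher (adjusted p = 0.00219, and 0.0527 without the asthma pool). Irf5 was lower, at 110 ± 14.9 CPM in B cells and 353 ± 47.0 in Xcr1+ cDC1 (log2 fold change -1.70 ± 0.20, adjusted p = 1.05e-07). Irf7 was lower too (log2 fold change -1.87 ± 0.54, adjusted p = 0.00611), but its pools overlapped between the classes, and the adjusted p was 0.248 without the asthma pool and 0.0756 without the tolerance pool.

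Between the macrophages, 2 of 8 members passed in IM against AM, where 37.1% of all genes passed. Besides Irf8, this was Irf5, with 142 CPM in the asthma pool, 171 in the tolerance pool and 194 in the control pool of IM, against 45.7, 68.3 and 43.2 CPM in AM. The ranges were far apart and the log2 fold change was 1.70 ± 0.18 (adjusted p = 7.84e-09). AM were the lowest of the 7 classes in Irf5. Nonclassical monocytes against IM gave 3 of 8 members (background 30.8%), all higher, namely Irf1 by 1.36 ± 0.42 (adjusted p = 0.0144), Irf2 by 0.70 ± 0.16 (adjusted p = 0.00127) and Irf5 by 0.78 ± 0.20 log2 units (adjusted p = 0.00282). Without the asthma pool their adjusted p was 0.293, 0.104 and 0.154, and without the tolerance pool 0.0916, 0.0694 and 0.0828. In cDC2 against IM, 3 of 8 members passed (background 31.4%), with Irf5 0.60 ± 0.18 higher (adjusted p = 0.0107) beside Irf4 and Irf8. For Irf5 the adjusted p was 0.17 without the asthma pool and 0.0677 without the tolerance pool.

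The DNA-binding partners of IRF4 and IRF8 had class patterns of their own. Of 7 partner genes, 0 were higher and 2 lower in Xcr1+ cDC1 than in cDC2, with a median log2 fold change of -0.27 beside -0.01 over all genes, of which 15.5% were called. Spib, a relative of PU.1, had 0 UMIs in Xcr1+ cDC1 of all 3 pools, against 43, 17 and 7 UMIs in cDC2 of the asthma, tolerance and control pools, and it had 48.1, 44.0 and 32.0 CPM in Ccr7+ DC and 132, 122 and 131 CPM in B cells. Batf3, the partner of IRF8 in cDC1, was at 238, 226 and 144 CPM in Xcr1+ cDC1 against 203, 174 and 126 CPM in cDC2 and did not pass the test. In B cells against Xcr1+ cDC1, 4 of the 7 partners were higher and 2 lower, where 40.5% of all genes were called. Ikzf3, the lymphoid factor Aiolos, had 167, 157 and 167 CPM in B cells, against 1.06, 0 and 0 CPM in Xcr1+ cDC1. Of the 3 IRF2-binding proteins, Irf2bp2 and Irf2bpl were lower in Ccr7+ DC than in cDC2, where 43.6% of all genes were called. The log2 fold change was -1.88 for Irf2bp2 (adjusted p = 6.79e-08), and for Irf2bpl it was -2.38 (adjusted p = 0.00138).

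Receptor and sensor genes were compared in the same way. Of 9 interferon receptor and JAK-STAT genes, 7 were higher and 2 lower in Ccr7+ DC than in cDC2, where 43.6% of all genes were called. The interferon-gamma receptor gene Ifngr1 was lower, with a log2 fold change of -1.99 (adjusted p = 8.49e-07). Of 12 tested genes for nucleic acid sensors, adaptors and IRF kinases, 5 were higher and 1 lower, a share near that of all genes, among them the signalling adaptors Traf6 (2.11, adjusted p = 9.67e-08) and Traf3 (1.75, adjusted p = 2.28e-07). The kinase gene Ikbke was called as well (adjusted p = 0.00305), on 5, 2 and 0 UMIs in Ccr7+ DC of the asthma, tolerance and control pools, against 1, 0 and 0 in cDC2. In IM against AM, 4 of the 9 receptor and JAK-STAT genes were higher and 0 lower, near the 37.1% of all genes called, with the largest changes in the type I receptor genes Ifnar1 (2.40, adjusted p = 1.89e-13) and Ifnar2 (1.48, adjusted p = 1.54e-08).

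The treatments were compared class by class, as ratios of CPM with exact intervals for counting error. Irf7, the interferon-inducible amplifier of the type I response, had a higher level in the asthma and tolerance pools than in the control pool in each of 7 classes. In B cells, however, the interval of the ratio held 1 in both pools (0.624 to 3.28 in the asthma pool). It also held 1 in nonclassical monocytes of the asthma pool (0.924 to 4.10). In AM it had 628, 501 and 50 UMIs in the asthma, tolerance and control pools, which is 103, 142 and 4.04 CPM. Lane by lane these levels were 113 and 92.7 CPM (asthma), 147 and 138 CPM (tolerance) and 3.48 and 4.51 CPM (control), so no lane of the control pool came near the others. The ratio to control was 25.4 (95% interval 19.0 to 34.6) in the asthma pool and 35.2 (26.3 to 48.0) in the tolerance pool.

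In AM, 4 of 8 members were 2-fold or more higher in the asthma pool than in the control pool, where 2.05% of 8912 genes with 100 or more UMIs were (1.17% were lower). The same 4, Irf7, Irf4, Irf1 and Irf9, were so in the tolerance pool (background 2.29% higher and 2.54% lower). Irf4 had 75.3, 55.2 and 5.25 CPM in AM of the asthma, tolerance and control pools, with lanes at 85.8 and 65.2, 66.0 and 46.9, and 6.10 and 4.51 CPM. The ratio was 14.4 (11.1 to 18.9) for asthma and 10.5 (7.91 to 14.2) for tolerance. Irf1 had 64.8, 55.8 and 15.3 CPM, with ratios of 4.23 (3.55 to 5.05) and 3.64 (2.97 to 4.46). Irf9 had 58.6, 58.1 and 15.5 CPM, with ratios of 3.78 (3.17 to 4.53) and 3.75 (3.06 to 4.59). Irf2, Irf3, Irf5 and Irf8 lay between 0.813 and 1.58 times the control level in both pools.

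In the other 6 classes the ratios of Irf4 lay between 0.323 and 1.59, with fewer than 10 control UMIs in all but cDC2 and B cells. In cDC2 the ratio to control was 1.54 (1.11 to 2.19) in the asthma pool and 1.31 (0.920 to 1.89) in the tolerance pool, and in B cells 1.45 (0.923 to 2.34) and 0.984 (0.576 to 1.70). Whether the ratios differ between classes was not tested. The Irf4 level of asthma AM was close to that of cDC2, yet AM held the cDC2 marker list at 63.8, 71.9 and 64.7 CPM in the asthma, tolerance and control pools, and the B cell list at 2.78, 3.12 and 4.52 CPM. The IM list was at 69.2, 70.8 and 39.2 CPM, the classical monocyte list at 17.0, 19.3 and 8.55 CPM, and the AM list itself at 2539, 2234 and 3266 CPM, and their part in the result was not tested. After thinning, 9.36% of 1218 asthma AM held an Irf4 UMI (7.78 to 11.1%), 6.47% of 572 tolerance AM (4.60 to 8.81%) and 0.710% of 2254 control AM (0.406 to 1.15%). Unthinned, the shares were 20.4%, 19.5% and 2.69%, at median depths of 4615, 5736 and 5045 UMIs. Endothelial cells had 0 Irf4 UMIs in 199 cells.

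**Figure D3:**
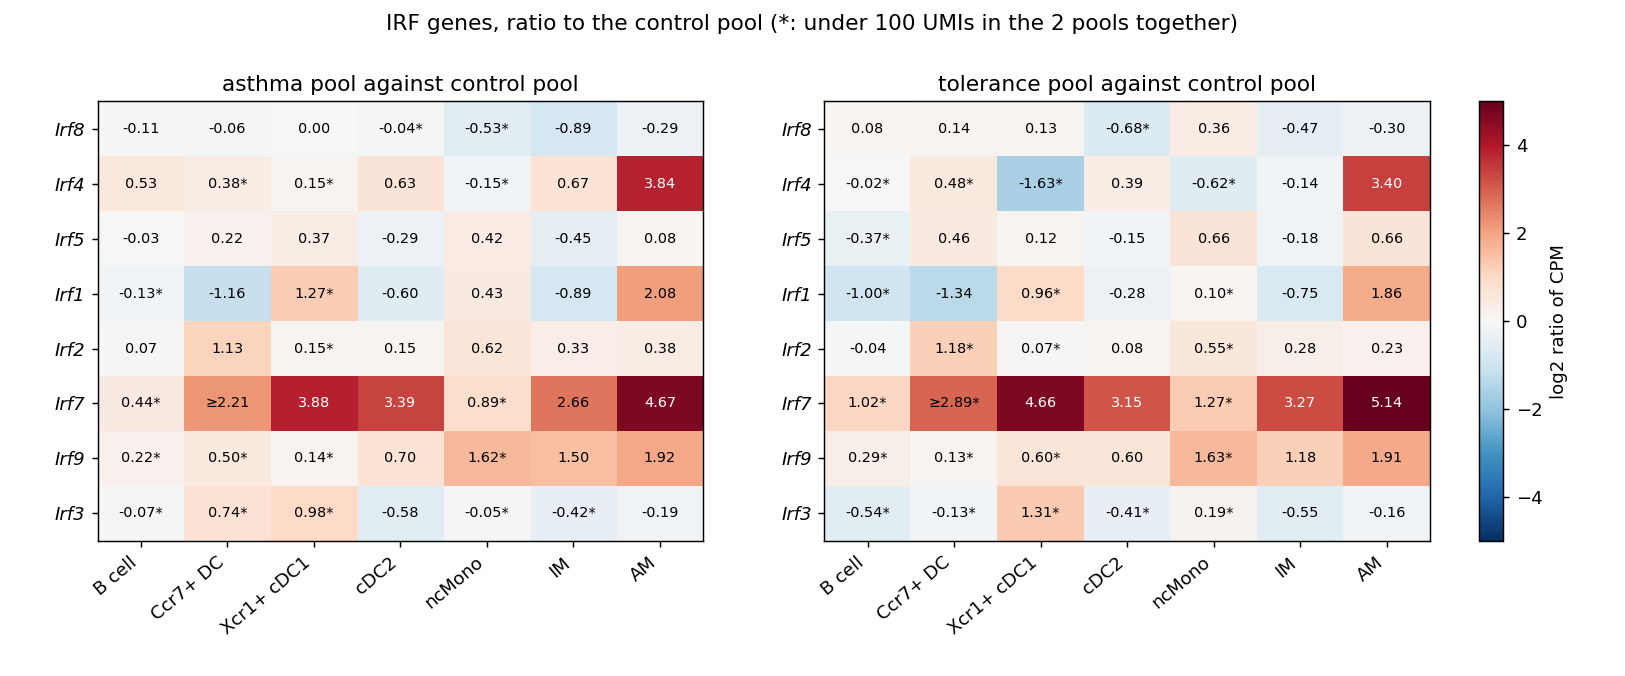
Log2 ratio of CPM in the asthma pool (left) and the tolerance pool (right) to the control pool for each IRF gene in 7 cell classes; an asterisk marks fewer than 100 UMIs in the 2 pools together, and ≥ a lower bound where the control pool had 0 UMIs. Irf7 reaches ratios of 25.4 and 35.2 in AM and of 14.7 and 25.3 in Xcr1+ cDC1, Irf4 stands apart in AM, and Irf8 in Xcr1+ cDC1 has ratios of 1.00 and 1.10.

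Irf7 had the largest ratios to the control pool among the members with 100 or more UMIs in Xcr1+ cDC1 and cDC2. In Xcr1+ cDC1 it had 190, 326 and 12.9 CPM in the asthma, tolerance and control pools, with ratios of 14.7 (6.64 to 40.7) and 25.3 (11.5 to 69.7). In cDC2 it had 124, 105 and 11.8 CPM, with ratios of 10.5 (5.48 to 23.2) and 8.87 (4.57 to 19.7). The control values rest on 6 and 9 UMIs, which the wide intervals reflect. Gated cDC2 held the classical monocyte list at 1018, 897 and 219 CPM in the asthma, tolerance and control pools and the Ccr7+ DC list at 293, 274 and 49.7 CPM, and gated Xcr1+ cDC1 held the classical monocyte list at 81.5, 107 and 10.7 CPM. Their part in the result was not tested. In Ccr7+ DC it had 120 and 73 UMIs in the asthma and tolerance pools and 0 in the 28 control cells, so it was at least 4.62-fold higher in the asthma pool and at least 7.43-fold higher in the tolerance pool, against a floor of 3 UMIs over the control class. Among members with 100 or more UMIs, 1 of 3 in Xcr1+ cDC1 and 1 of 7 in cDC2 were 2-fold or more higher in the asthma pool, beside 2.06% and 4.69% of all genes. In the tolerance pool it was 1 of 3 and 1 of 6, beside 2.64% and 3.2%. No member was 2-fold or more lower in these 2 classes, where 1.1% and 2.89% of all genes were in the asthma pool, and 2.82% and 2.55% in the tolerance pool. Irf8 in Xcr1+ cDC1 had ratios of 1.00 (0.920 to 1.09) and 1.10 (1.00 to 1.2).

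In IM, Irf7 had 111, 170 and 17.6 CPM in the asthma, tolerance and control pools, and Irf9 had 74.6, 59.9 and 26.4 CPM. The ratios were 6.30 (2.43 to 23.3) and 9.66 (3.76 to 35.6) for Irf7 and 2.83 (1.27 to 7.82) and 2.27 (1.03 to 6.25) for Irf9. The control class was small, with 47 cells and 4 and 6 UMIs of these genes. IM held the classical monocyte list at 189, 275 and 74.8 CPM in the asthma, tolerance and control pools and the cDC2 list at 1172, 1037 and 660 CPM, and their part in the result was not tested. Of the members with 100 or more UMIs, 2 of 7 were 2-fold or more higher in the asthma pool (background 6.41%) and 1 of 8 in the tolerance pool (background 5.04%), where 1 UMI was added to each count before the fold. None was 2-fold or more lower (backgrounds 3.78% and 3.82%). B cells had 0 members past 2-fold in either pool (backgrounds 0.246% and 0.25% higher, 0.164% and 0.25% lower), with Irf7 at 44.5, 66.5 and 32.7 CPM. Nonclassical monocytes had 0 of 3 and 0 of 2 (backgrounds 0.743% and 0.132% higher, 0.0929% and 0% lower).

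Irf1 did not follow Irf7 across classes. In AM it was higher in the asthma and tolerance pools, but in Ccr7+ DC it was at 158, 139 and 352 CPM in the asthma, tolerance and control pools, with ratios of 0.449 (0.321 to 0.640) and 0.396 (0.262 to 0.600). It was the 1 member 2-fold or more lower in Ccr7+ DC in either pool, among 5 and 3 members with 100 or more UMIs, beside backgrounds of 4.19% in both comparisons. Higher by 2-fold or more was 1 of 5 members in the asthma pool (Irf7, background 6.64%) and 0 of 3 in the tolerance pool (background 4.86%). The control lanes, at 391 and 317 CPM, both lay above the asthma lanes (172 and 144 CPM) and the tolerance lanes (161 and 119 CPM). The control class also differed in other genes. It held the nonclassical monocyte list at 840 CPM, against 214 in the asthma and 227 in the tolerance pool, of which Eno3 alone gave 206, 222 and 792 CPM in the asthma, tolerance and control pools, while Cd300e and Spn were at 0 in all 3. Its part in the result was not tested. In IM the ratios of Irf1 were 0.539 (0.347 to 0.867) and 0.593 (0.392 to 0.935).

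The tolerance pool was also compared with the asthma pool. Of the members with 100 or more UMIs, 0 were past 2-fold in any of 7 classes, where 0.187% of 7482 genes in AM were 2-fold or more higher and 0.134% lower. The backgrounds, higher and lower, were 0.392% and 0.458% in IM, 0.0789% and 0.552% in nonclassical monocytes, 0.0827% and 1.03% in Xcr1+ cDC1, 0.392% and 0.637% in Ccr7+ DC, 0.0753% and 0.264% in cDC2, and 0% and 0.22% in B cells. With 4 to 8 such members per class, a count of 0 lies near these shares and says little about the members. Irf7 was higher in the tolerance pool than in the asthma pool of AM (142 and 103 CPM, ratio 1.38, 1.23 to 1.56), of IM (170 and 111 CPM, ratio 1.53, 1.31 to 1.80) and of Xcr1+ cDC1 (326 and 190 CPM, ratio 1.72, 1.41 to 2.10), but not of cDC2 (105 and 124 CPM, ratio 0.844, 0.703 to 1.01). Irf4 was lower in the tolerance pool of AM (55.2 and 75.3 CPM, ratio 0.734, 0.617 to 0.869) and of IM (27.9 and 49.0 CPM, ratio 0.569, 0.427 to 0.759). These ratios compare 1 pool with 1 pool.

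The members were then followed by the interferon state of single AM, since AM of the asthma and tolerance pools held cells with many interferon-induced transcripts. A cell was called interferon-high with UMIs of 4 or more of 12 interferon-induced genes such as Isg15, Ifit1 and Rsad2, and interferon-low with at most 1, and no IRF gene was among the 12. Of the AM, 13.1% in the asthma pool (11.3 to 15.1%), 22.1% in the tolerance pool (18.8 to 25.7%) and 0.221% in the control pool (0.0718 to 0.515%) were interferon-high. The control pool had 5 such cells, so the test rests on the asthma and tolerance pools alone (n = 2, with 1 residual degree of freedom). Its p-values lean on a spread shared across genes (21.89 prior degrees of freedom) and do not measure variation between mice. In it, 6 of 8 members were higher in interferon-high cells and 0 lower, where 6.23% of 8376 genes were higher and 2.58% lower (8.81% in either direction).

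Irf7 had 341 and 377 CPM in interferon-high AM of the asthma and tolerance pools, against 26.5 and 26.8 CPM in interferon-low AM (log2 fold change 3.81 ± 0.12, adjusted p = 1.97e-17). Irf1 had 129 and 94.6 CPM, against 44.0 and 35.7 CPM (1.57 ± 0.14, adjusted p = 9.85e-09). Irf9 had 84.96 and 91.4 CPM, against 47.8 and 41.3 CPM (1.04 ± 0.15, adjusted p = 2.63e-05). These 3 genes, which act in the interferon loop itself, were joined by the lineage factor Irf4, with 118 and 71.2 CPM against 60.7 and 39.1 CPM (1.00 ± 0.14, adjusted p = 1.52e-05). Irf2 (0.56 ± 0.12, adjusted p = 0.00164) and Irf5 (0.51 ± 0.16, adjusted p = 0.0434) were higher by less. Irf8 (log2 fold change 0.31 ± 0.12, adjusted p = 0.129) and Irf3 (-0.25 ± 0.24, adjusted p = 0.646) did not pass. With DESeq2 in place of edgeR, Irf2, Irf4, Irf5 and Irf9 did not pass either (adjusted p = 0.723, 0.0909, 1 and 0.0736). Interferon-high cells were also deeper, with median UMIs of 5786 and 7017, against 4300 and 5066 in interferon-low cells, and the part of depth was not tested.

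Genes around the family in the same comparison were the partners and sensors of the interferon response. Stat2, whose product binds IRF9, was higher (log2 fold change 1.83, adjusted p = 3.41e-09), while the receptor genes Ifnar1 and Ifnar2 had log2 fold changes of -0.03 and 0.21. Of 12 tested sensor, adaptor and kinase genes, 5 were higher and 0 lower, where 6.23% of all genes were higher and 2.58% lower. The largest changes were in the RNA helicase genes Ddx58 (1.88, adjusted p = 5.31e-11) and Ifih1 (1.87, adjusted p = 1.91e-10). Of the 5 tested DNA-binding partners of IRF4 and IRF8, 0 passed, where 8.81% of all genes did, so this count is near that share. Their median log2 fold change was 0.03 beside -0.01 over all genes.

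Irf7 rose in steps with the number of interferon-induced genes in a cell. In asthma AM it was at 13.7, 58.5, 153, 265 and 543 CPM with 0, 1, 2 to 3, 4 to 6 and 7 or more of the 12 genes detected, and in tolerance AM at 15.3, 49.0, 123, 248.5 and 599 CPM. Control AM had 2.49 CPM with none of the 12 genes detected (2089 cells) and 2.95 CPM with 1 (157 cells). In AM with no UMI of the 12 genes, Irf7 was at 13.7 CPM in the asthma pool (9.68 to 18.8) and 15.3 CPM in the tolerance pool (9.05 to 24.1). Both lay above the 2.49 CPM (1.65 to 3.60) of the control pool. These cells had median depths of 4196, 4892 and 4978 UMIs in the asthma, tolerance and control pools. At such depths a cell can express these genes and give no UMI of them. Irf4 in AM with none of the 12 genes detected was at 49.3, 28.8 and 5.24 CPM in the asthma, tolerance and control pools. Irf8 showed no such steps, with 95.4 to 124 CPM in asthma AM and 83.2 to 133 CPM in tolerance AM. Interferon state was tested in AM only. Over the same groups Irf4 was at 106, 76.7, 83.2, 61.8 and 57.7 CPM in asthma cDC2. In tolerance cDC2 it was at 83.7, 70.6, 75.05 and 52.0 CPM, where the last group had too few cells. In IM it was at 59.7, 48.6, 40.2, 17.7 and 78.6 CPM (asthma) and 37.3, 23.8, 19.1, 30.4 and 25.5 CPM (tolerance). With none of the 12 genes detected, Irf7 in IM was at 7.86, 8.83 and 18.4 CPM (asthma, tolerance and control, the last on 3 UMIs). In Xcr1+ cDC1 it was at 22.8, 64.3 and 8.56 CPM, and in cDC2 at 52.0, 45.9 and 9.81 CPM. Irf8 in IM was at 156 (asthma) and 167 CPM (tolerance) with none of the genes, and at 284 and 280 CPM with 7 or more.

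**Figure D4:**
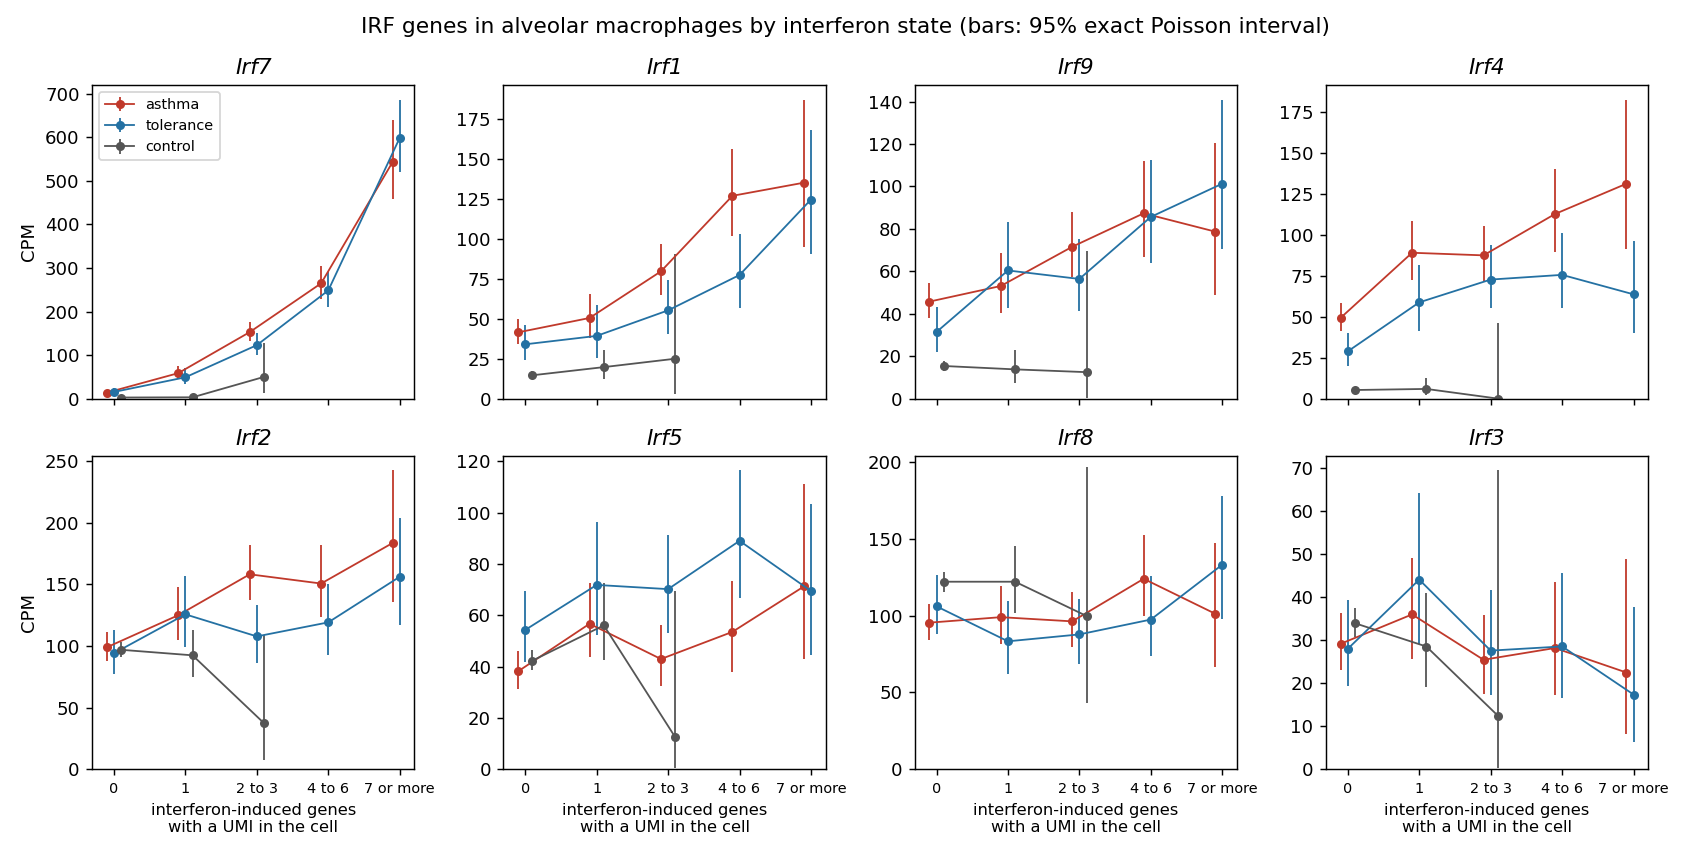
Level of each IRF gene (CPM, linear axis from 0) in AM grouped by how many of 12 interferon-induced genes gave a UMI in the cell, for the asthma, tolerance and control pools with 95% exact Poisson intervals for counting error; groups of fewer than 10 cells are not drawn. Irf7 climbs to 543 CPM in the asthma pool and 599 CPM in the tolerance pool, and Irf4 of the control pool lies near 5 CPM.

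With interferon-high cells left out, the ratios to control in AM were 20.2 and 19.9 for Irf7, 12.8 and 9.39 for Irf4, 3.50 and 2.77 for Irf1 and 3.52 and 3.02 for Irf9 in the asthma and tolerance pools. Between the tolerance and asthma pools, the ratio of Irf7 was 0.984 (0.801 to 1.2) without these cells, against 1.38 with them, and that of Irf4 was 0.735 (0.596 to 0.903).

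Across 33 sums of pool and class (12 classes, with at least 10 cells each), the genes with the pattern most like a member were sought among 6155 genes by the Pearson correlation of log2(CPM + 10). These genes had a mean of at least 20 CPM, and the marker genes that define the classes were left out of the search. For Irf7 these were Trim30a (r = 0.87), Rsad2 (0.82) and Isg20 (0.77), and for Irf9 Xaf1 (0.74), Sbno1 (0.71) and Tiprl (0.70). For Irf5 they were Cd86 (0.85), Actr3 (0.85) and Napsa (0.84), for Irf1 H2-D1 (0.81), Parp14 (0.72) and Clec2d (0.72), and for Irf4 Gga2 (0.79), H2-DMb2 (0.77) and Snrnp25 (0.74). For Irf2 they were Phf20l1 (0.81), Rnf144a (0.77) and Klf3 (0.76), for Irf3 Cfap20 (0.76), Ehmt1 (0.75) and Zmynd11 (0.75), and for Irf8 Slc8b1 (0.71), Tyk2 (0.69) and Pik3cg (0.69). Between members, the highest values were 0.57 for Irf5 with Irf8 and 0.42 for Irf7 with Irf9, and the lowest was -0.59 for Irf2 with Irf8. The sums share pools and libraries, so these values are a description.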

How the data were processed

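Per the labels and the study's methods, the authors aligned and counted reads (mm10, Cell Ranger 3.1.0, STAR), assigned barcodes to treatments by hashtag in Seurat 3.1.5 and deposited UMI counts (1 matrix per pool and lane), which were used here unscaled. Members, lists and tests were chosen with earlier results of these data known.

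Kept cells had at least 500 genes, at most 20000 UMIs and at most 20% of them mitochondrial (10088 of 10901 barcodes). Scrublet's own threshold marked 0.059% and 0.141% of cells in the 2 lanes, so the top 2% of scores (118 and 108 cells) were removed instead. A cell joined a class with 2 or more of 6 markers detected and a margin of 2 over every other of 13 classes, and 2254 cells joined none. Median depth was 4476 to 6636 UMIs per library. Python 3.11.15 (scanpy 1.11.5, numpy 2.4.6, scipy 1.17.1, pandas 2.3.3, matplotlib 3.10.9) was used.

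Counts were summed per pool and class (at least 10 cells) and tested with edgeR 4.0.16 in R 4.3.3 (quasi-likelihood, TMM, filterByExpr, pool as a block, since the classes of a pool come from the same mice, Benjamini-Hochberg over all tested genes) in 1 fit of 23 sums and 8977 genes, and for interferon state in a fit of 4 sums and 8376 genes. The class fit had 13 residual and 14.75 prior degrees of freedom, the latter from a spread shared across genes. It was tested on simulated data for Xcr1+ cDC1 against cDC2 only, and the interferon state fit was not. The named genes are the 8 members, the 3 genes most like each, and up to 4 called genes with the largest fold per list. Treatments have no test, and a member counted as past 2-fold needed 100 UMIs in the 2 pools together, 1 UMI being added to each. Alternatives were DESeq2 1.42.0 and its size factors, no filter, no block, fewer classes, single lanes, left-out pools, stricter gates and cell filters, and doublet candidates kept. Promoters are RefSeq, GRCm38.p6, and gene positions GENCODE, GRCm38. Some items are not reported here.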

Additional observations from a re-analysis of the deposited data

Results flagged for a closer look

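Irf1 went in opposite directions in 2 classes when the same pools were compared, in both lanes each time. The ratio of the asthma pool to the control pool was 4.23 in alveolar macrophages and 0.449 in Ccr7+ DC. The ratio of the tolerance pool to the control pool was 3.64 in alveolar macrophages and 0.396 in Ccr7+ DC. The difference between the classes was not tested, since each treatment is 1 pool, and the control value of Ccr7+ DC rests on 44 UMIs in 28 cells. With 3 pools per class no single pool could be set apart from the others by its gap.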

How the results depend on the processing

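Of 30 member changes that passed the test, 16 kept direction and call under every alternative that was run, among them every change of Irf8 and every change of Irf1 but that in nonclassical monocytes. The other 14 lost the call under at least 1 alternative and kept their direction. Irf7 in nonclassical monocytes against interstitial macrophages, not called, turned to a called log2 fold change of 1.33 (adjusted p = 0.0119) without interferon-high cells. Leaving out a pool moved the count of called genes from 1388 to between 489 and 1673 for Xcr1+ cDC1 against cDC2 (766 without the tolerance pool), from 3576 to between 1773 and 3855 for Ccr7+ DC against Xcr1+ cDC1, from 3912 to between 1973 and 4324 for Ccr7+ DC against cDC2, from 3326 to between 1698 and 4205 for interstitial macrophage against alveolar macrophage (2090 without the tolerance pool), from 2769 to between 1414 and 2970 for nonclassical monocyte against interstitial macrophage (1626), from 2819 to between 1238 and 3698 for cDC2 against interstitial macrophage (1424), and from 3639 to between 2069 and 3748 for B cell against Xcr1+ cDC1. The lowest count was without the asthma pool each time, in a fit with fewer sums. With lane 1 alone the counts were 884 (Xcr1+ cDC1 against cDC2), 1795 (nonclassical monocytes against IM), 1860 (cDC2 against IM), 2319 (B cells against Xcr1+ cDC1) and 450 (interferon-high against interferon-low alveolar macrophages, from 738), and with a floor of 1200 genes per cell 2361 (B cells). For interferon state DESeq2 called 198 genes, 92.4% of them higher, against 70.7% of 738, and without the pool block 491. The causes were not tested. Without interferon-high cells, left out after seeing the data, the ratio of Irf7 in AM (tolerance against control) was 19.9. A fit of interferon state without a pool was not run, as it leaves 1 pool. Depth limits the treatment ratios, since Irf7 had 0 to 9 UMIs in the control pool of IM, Xcr1+ cDC1, Ccr7+ DC, cDC2 and B cells.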

Other observations

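A pair of small classes outside the comparisons were high in Irf8. NK cells had 48, 45 and 14 Irf8 UMIs in 12, 8 and 5 cells of the asthma, tolerance and control pools, which is 2265 CPM (95% interval 1670 to 3003), 2773 CPM (2022 to 3710) and 1792 CPM (980 to 3006). An Irf8 UMI was found in 23 of 25 NK cells. The 4 plasmacytoid DC of the tolerance pool had 61 Irf8 UMIs (3254 CPM, 2489 to 4180) and 22 Irf7 UMIs (1174 CPM, 736 to 1777). These counts are too small for a comparison between pools.

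Batf3, a partner of IRF4 and IRF8 in DCs, had the same order of pools as Irf4 in alveolar macrophages, with 128 CPM in the asthma pool, 107 CPM in the tolerance pool and 22.7 CPM in the control pool. In Xcr1+ cDC1 it was at 238, 226 and 144 CPM in the same order.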
